A study of Mus musculus with 16 samples.

Results

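The nuclear genes for the subunits of the mitochondrial respiratory chain were followed through RNA sequencing of mouse pancreatic cancer cells. The members were the protein-coding genes whose symbols start with Nduf plus the letter a, b, c, s or v and a digit, with Uqcr, with Atp5, or with Cox and a digit from 4 to 8, together with Sdha, Sdhb, Sdhc and Sdhd. This rule uses names only and no measured value. It found 85 of the 54532 genes in the tables, of which 22046 are protein-coding: 37 of complex I, 4 of complex II, 8 of complex III, 18 of complex IV and 18 of complex V. The 85 gene IDs carry 84 symbols, since Atp5o names 2 of them.

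KPC1199 is a mouse pancreatic cancer cell line, and all groups used here are labelled as cells of this line that were sorted from tumours it formed after orthotopic injection, which places the tumour in the pancreas itself. The 16 labelled samples comprise 8 pieces of tumour tissue, not analysed here, and 8 sorted samples in 4 groups of 2: WT cells, cells overexpressing Ly6d, and cells sorted as Ly6d-high or Ly6d-low. Ly6d is a small protein anchored to the outside of the plasma membrane, and the study asks how it bears on the start and growth of pancreatic cancer. The labels do not give the promoter of the overexpressed Ly6d, the number of clones, the age of the mice, or the tumours behind each library. If the paired libraries are not from separate tumours, the p-values below measure only a technical spread.

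The respiratory chain sits in the inner mitochondrial membrane. Complexes I and II pass electrons from NADH and succinate to ubiquinone, complex III passes them on to cytochrome c, complex IV hands them to oxygen, and complex V makes ATP from the proton gradient that complexes I, III and IV build. Complex II is encoded wholly in the nucleus, whereas the other complexes also hold subunits encoded in mitochondrial DNA. Several subunits of complex IV exist as isoforms for muscle, lung or testis, and the c subunit, the rotor ring of complex V, is made from 3 separate genes.

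The 3 c subunit genes are shown because they encode 1 mature protein from different DNA. In the GENCODE M21 transcripts (GRCm38), the last 225 coding bases before the stop codon were 84.9% identical between Atp5g1 and Atp5g2, 80.0% between Atp5g1 and Atp5g3, and 78.7% between Atp5g2 and Atp5g3. Of the 75 codons, 32, 42 and 44 differed in these pairs, and 0 of them changed the amino acid. The longest run of identical bases in this stretch was 20 between Atp5g1 and Atp5g2. The last 120 of these bases follow, 5′ to 3′, with capitals at the 30 positions where the 3 genes are not all the same.
Atp5g1: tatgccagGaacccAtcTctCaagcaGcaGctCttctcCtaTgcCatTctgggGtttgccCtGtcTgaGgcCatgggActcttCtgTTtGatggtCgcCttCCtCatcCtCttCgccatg
Atp5g2: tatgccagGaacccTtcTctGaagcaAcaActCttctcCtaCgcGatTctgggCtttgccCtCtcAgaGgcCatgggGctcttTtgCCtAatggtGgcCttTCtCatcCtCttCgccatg
Atp5g3: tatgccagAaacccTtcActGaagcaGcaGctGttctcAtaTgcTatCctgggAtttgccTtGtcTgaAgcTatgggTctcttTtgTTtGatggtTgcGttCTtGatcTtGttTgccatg

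Some members also share short motifs in their promoters. RefSeq windows of 300 bases (GRCm38.p6, 250 before to 50 after the start) were matched by symbol for 68 of the 84 symbols, as 73 windows. On both strands, GCATGCGC, the core of the NRF1 motif, was in 13.7% of the members' windows and in 2.71% of all 32851 windows (3.51% of the windows of protein-coding genes). CCGGAAG, an ETS motif of the kind bound by GABP, was in 21.9% against 8.86% (11.6% for protein-coding genes). AAGATGG, the YY1 core, was in 15.1% against 6.34%, and TCAAGGTCA, the motif of the oestrogen-related receptors, in 2.74% against 0.423%. At least 1 of these 4 was in 43.8% of the members' windows and in 17.0% of all windows. NRF1 and GABP are textbook activators of respiratory chain genes, and a match is a stretch of letters, not a measured binding site. Atp5l, the g subunit of complex V, and Cox6a1, a complex IV subunit, were the 2 members with both an NRF1 and an ETS match wholly upstream of the start, and their 250 upstream bases are shown for that reason. Both lie on the minus strand, at chr9:44920743-44920992 and chr5:115348959-115349208, and capitals mark the matches: GCATGCGC, alone or as 2 overlapping matches on both strands in GCGCATGCGC, and CTTCCGG, the ETS motif read on the other strand.
Atp5l: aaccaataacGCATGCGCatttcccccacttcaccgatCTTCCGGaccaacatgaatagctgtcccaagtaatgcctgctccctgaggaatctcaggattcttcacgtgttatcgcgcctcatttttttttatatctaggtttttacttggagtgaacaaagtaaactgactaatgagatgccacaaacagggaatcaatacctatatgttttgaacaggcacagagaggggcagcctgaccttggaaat
Cox6a1: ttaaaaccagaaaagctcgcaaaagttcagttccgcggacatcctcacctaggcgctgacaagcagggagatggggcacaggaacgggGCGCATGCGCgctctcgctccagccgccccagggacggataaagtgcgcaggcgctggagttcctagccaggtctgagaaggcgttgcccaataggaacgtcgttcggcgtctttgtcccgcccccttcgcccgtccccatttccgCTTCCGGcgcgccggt

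WT and overexpression libraries were deposited as raw counts, with totals of 15449241 to 18290325 per library, and are given as CPM, counts scaled to an equal total per library. Ly6d-high and Ly6d-low libraries were deposited as TPM, which also divide by gene length, and whole reads recovered from them add up to 15063975 to 20509539. Ly6d was at 1260 and 1066 CPM in WT and at 3380 and 3423 CPM in overexpression cells, and at 697 and 504 TPM in Ly6d-high against 1.56 and 0.352 TPM in Ly6d-low cells, in the direction of the labels in both tables. The WT cells thus had Ly6d mRNA as well. The overexpression columns were placed in their group by a library name found in the labels of tumours with overexpression. The sorted overexpression samples carry another name, so that this assignment is an inference and the columns could be tumour tissue, and the stem of the WT column names also occurs in titles of WT tumour tissue. The epithelial keratin Krt8 was at 4365 to 5163 CPM and 12654 to 18159 TPM. The summed level of 8 acinar genes was 0.0788 times as high in overexpression as in WT cells and 2.31 times as high in Ly6d-high as in Ly6d-low cells, that of 5 macrophage genes 3.88 and 2.84 times, that of 4 neutrophil genes 78.1 and 4.78 times, and that of 7 epithelial genes 1.09 and 0.706 times. The neutrophil sum in the Ly6d sorts is a ratio of low levels, averaging 4.12 TPM in Ly6d-high and 0.861 TPM in Ly6d-low cells. Only 1 of these 4 genes had enough reads to be tested there. The 7 epithelial genes did not move together in the Ly6d sorts: 3 were above 0 and 4 below, with 2 called higher and 3 lower in limma. None of these shifts was tested for its part in the results below. In bulk RNA fewer cells of a type and less RNA per cell cannot be told apart.

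Of the 85 members, 78 had enough reads to be tested in each comparison. The 7 others, the same in both, were Cox4i2, Cox6a2, Cox6b2, Cox7b2, Cox8b, Cox8c and the second gene ID of Atp5o. Cox7b2, Cox8b, Cox8c and the second Atp5o were at 0 in all 8 libraries. Cox6a2, the isoform of heart and skeletal muscle, was at 0 except for 0.243 TPM in 1 Ly6d-low library. Cox4i2, an isoform known from lung, reached at most 0.383 CPM and 0.763 TPM, and Cox6b2, known from testis, at most 0.939 CPM and 1.24 TPM. Where isoforms exist, the general ones were expressed: Cox4i1, Cox6a1, Cox6b1, Cox7a2, Cox7b and Cox8a. Of the muscle forms, Cox7a1 alone passed the filters, at 1.33 to 2.37 CPM and 0.309 to 2.33 TPM. The 5 striated muscle marker genes summed to at most 0.841 CPM in any count library. In the Ly6d sorts they summed to 0.958 and 1.27 TPM in Ly6d-high and to 3.23 and 2.56 TPM in Ly6d-low cells.

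The 85 members together made up 8278 and 7427 CPM in WT cells and 7935 and 8376 CPM in overexpression cells. These groups overlapped, and the ratio of the means was 1.04. In the sorts by Ly6d they summed to 15411 and 12418 TPM in Ly6d-high cells and to 15431 and 14833 TPM in Ly6d-low cells, again overlapping, with a ratio of 0.920. The second Ly6d-high library was the lowest of the 4 and the first nearly equalled the highest. By complex, the Ly6d-high libraries lay below both Ly6d-low libraries for complex II (ratio 0.955) and complex V (ratio 0.895), and overlapped them for complexes I, III and IV. With 2 libraries a group, an exact two-sided permutation test of such a sum cannot go below p = 0.33, so none is given.

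**Figure D1:**
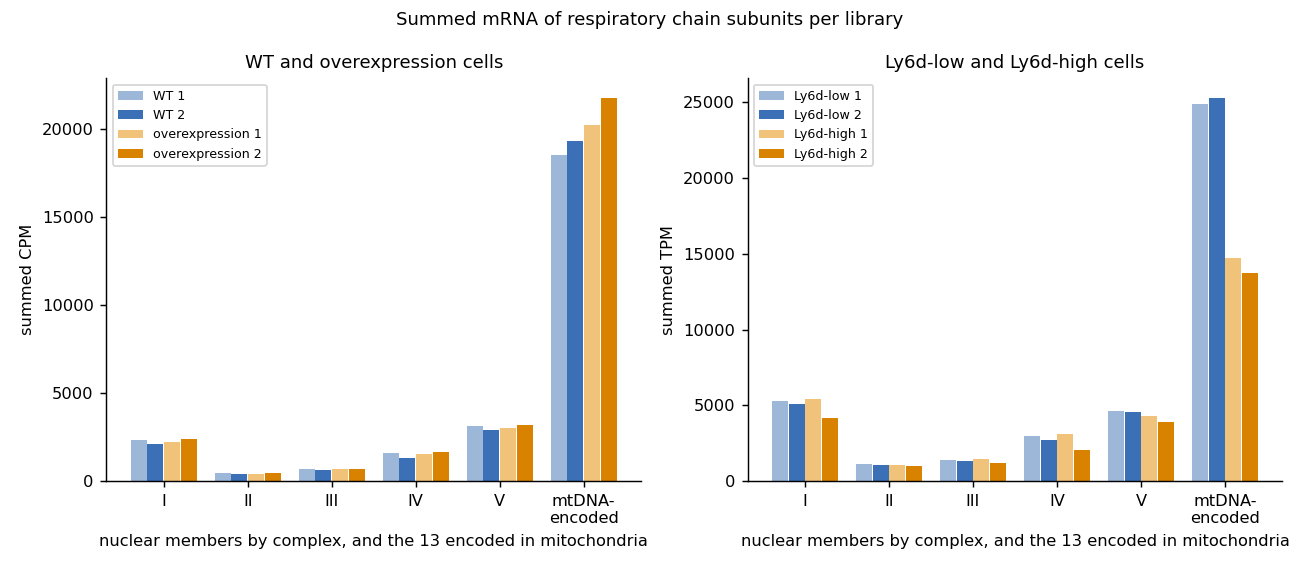
Summed mRNA of the nuclear members by complex, and of the 13 subunits encoded in mitochondrial DNA, in each library: CPM for WT and overexpression cells (left) and TPM for Ly6d-low and Ly6d-high cells (right). Each bar is 1 library, and the clearest step is the mitochondrial set at right, at 24847 and 25299 TPM in Ly6d-low against 14753 and 13715 TPM in Ly6d-high cells.

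In cells overexpressing Ly6d, no nuclear respiratory chain gene passed the test against WT. In edgeR's quasi-likelihood test, with Benjamini-Hochberg adjustment over all genes and a threshold of 0.05, 0 of the 78 members tested were higher and 0 lower, where 2.32% of all 15771 genes were higher and 1.84% lower. DESeq2 also called 0, beside 2.78% of all genes higher and 2.11% lower, and 2 members had an unadjusted p under 0.05 in edgeR. The median log2 fold change of the members was 0.03, beside 0.00 for all genes, with 47 members above 0 and 31 below. Both overexpression libraries lay above both WT libraries for 13 members (26.3% of all genes did) and below for 5 (21.7% of all genes), and 60 overlapped. The 95% intervals were narrow for most members: 69 of 78 lay within 0.5 log2 units of 0, and the median half-width was 0.227.

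In Ly6d-high cells against Ly6d-low cells, 3 members changed. Sdha and Uqcrc1 rose, Atp5c1 fell, and 75 did not pass, in limma's test on log2(TPM + 1) with an adjusted p under 0.05, where 8.64% of all 14625 genes tested were higher and 1.17% lower. A further 8 members had an unadjusted p under 0.05, 3 of them above and 5 below 0. The members' median difference was −0.15 on the log2(TPM + 1) scale and that of all genes 0.25, so that 70 of the 78 lay below the median gene. Both Ly6d-high libraries lay above both Ly6d-low libraries for 9 members, where 54.4% of all genes did, and below for 19, where 10.4% of all genes did. TMM scaling of the TPM moved the median of all genes from 0.25 to −0.01 and that of the members to −0.43. Under it 0 members passed, 72 of 78 lay below 0, and the calls over all genes were 671 higher and 246 lower in place of 1264 and 171. How many members lie below 0 thus depends on the scaling. The members' median minus that of all genes was −0.39 without TMM and −0.43 with it, but −0.76 without the first Ly6d-high library and −0.08 without the second. On reads recovered from the TPM, edgeR called 0 members higher and 5 lower, beside 8.01% and 3.87% of all genes, and DESeq2 called 0 higher and 11 lower, beside 7.03% and 4.14%.

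**Figure D2:**
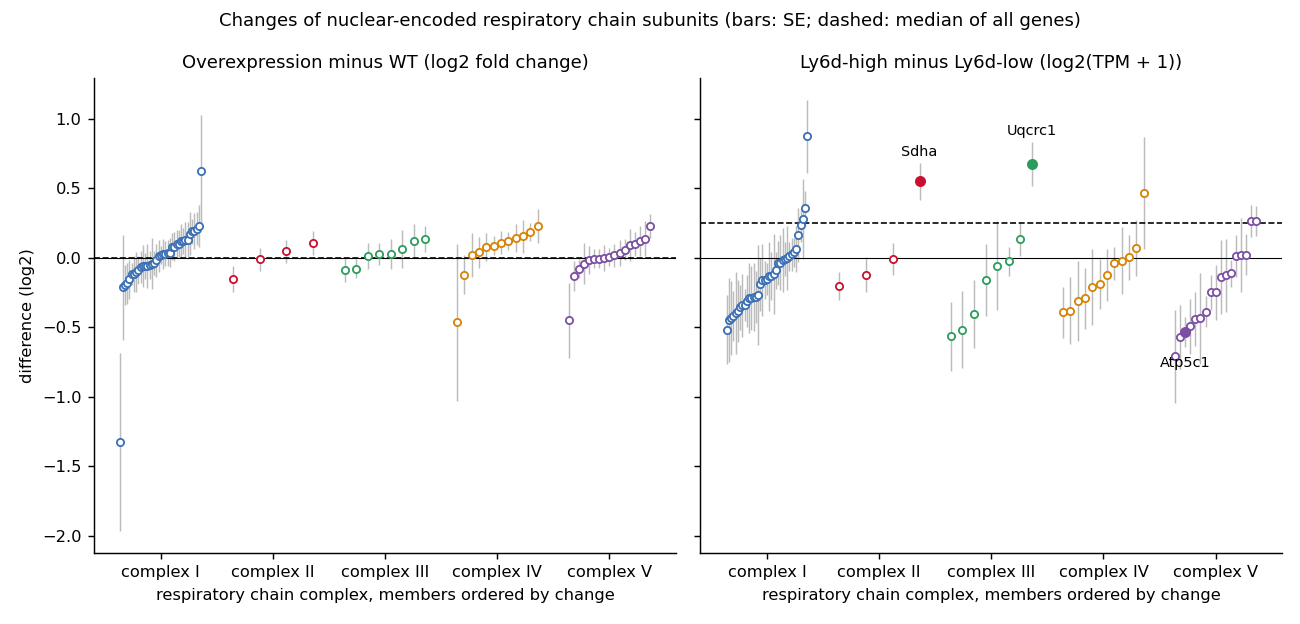
Difference of each tested member (log2, circles, with its SE as bars) for overexpression minus WT (left) and Ly6d-high minus Ly6d-low (right), by complex and in order of size; filled circles passed an adjusted p of 0.05. The dashed line is the median of all genes, near 0 at left and at 0.25 at right, where only Sdha, Uqcrc1 and Atp5c1 are filled.

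Complex I oxidises NADH. Its flavin subunit Ndufv1, which binds NADH, was at 158 and 171 CPM in WT and 145 and 175 CPM in overexpression cells, and at 303 and 313 TPM in Ly6d-high against 299 and 301 TPM in Ly6d-low cells. The overexpression values span the WT values, and the Ly6d-high values are higher by 0.04 ± 0.11 (SE) on the log2 scale. The other 2 core subunits of the NADH-oxidising module, Ndufs1 and Ndufv2, carry iron-sulphur clusters, and the module's median was 0.03 in overexpression and 0.04 in Ly6d-high cells. Ndufs7, which holds the last iron-sulphur cluster before ubiquinone, was at 194 and 180 TPM in Ly6d-high and at 159 TPM in both Ly6d-low libraries. Its groups did not overlap, but limma gave an adjusted p of 0.221.

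The remaining complex I members are accessory subunits, and none of the 37 members passed in either comparison. Their medians were 0.02 in overexpression and −0.15 in Ly6d-high cells. Ndufa12 had the highest fold change in overexpression cells, 0.62 ± 0.40, from counts of 238 and 423 in WT and 313 and 826 in overexpression libraries, so the replicates differ more than the groups (edgeR, adjusted p = 0.473). Ndufa12 passed without the second WT library (1.25), without the first overexpression library (1.17), and with no filter on low counts. Ndufc1, a small membrane-arm subunit, had the lowest difference in the Ly6d sorts, at 45.4 and 26.1 TPM in Ly6d-high and 52.5 and 47.1 TPM in Ly6d-low cells (−0.52 ± 0.25, limma adjusted p = 0.208). Per length, the most abundant complex I member in the Ly6d sorts was Ndufs8 (412 to 531 TPM) and the least abundant tested one Ndufb2 (1.36 to 2.32 TPM).

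Ndufa4 and Ndufa4l2 are paralogs that match the complex I rule by name, although Ndufa4 is now counted with complex IV. Ndufa4l2, known as a hypoxia-induced gene, was low throughout: 2.37 and 1.88 CPM in WT, 1.04 and 0.667 CPM in overexpression, 7.86 and 8.93 TPM in Ly6d-high, and 5.59 and 2.99 TPM in Ly6d-low cells. Both overexpression libraries lay below WT and both Ly6d-high libraries above Ly6d-low, and neither difference passed (edgeR −1.33 ± 0.64, adjusted p = 0.318; limma 0.87 ± 0.26, adjusted p = 0.0826). Ndufa4 was at 86.3 and 65.6 CPM in WT and 72.2 and 101 CPM in overexpression cells. In the Ly6d sorts it was at 135 and 82.2 TPM in Ly6d-high and 139 and 137 TPM in Ly6d-low cells, a difference carried mostly by 1 Ly6d-high library.

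Complex II is succinate dehydrogenase, the enzyme that the chain shares with the tricarboxylic acid cycle. Its flavoprotein Sdha (chr13:74322254-74350280, minus strand, GRCm38), which oxidises succinate, was at 140 and 162 TPM in Ly6d-high and at 99.6 and 106 TPM in Ly6d-low cells. The groups did not overlap, and the rise was 0.55 ± 0.13 (limma, adjusted p = 0.0460). The other 3 subunits did not pass in limma. The iron-sulphur subunit Sdhb was at 243 and 208 TPM in Ly6d-high and 254 and 236 TPM in Ly6d-low cells. The membrane anchor Sdhc was at 161 and 168 TPM against 164 and 167 TPM, and its partner Sdhd at 519 and 496 TPM against 604 and 565 TPM. The Sdhd difference of −0.20 ± 0.10 had a limma adjusted p of 0.219. On recovered reads Sdhd was called lower by edgeR (−0.49, adjusted p = 0.0451) and by DESeq2 (−0.50, adjusted p = 0.0209), where Sdha was not called. The difference between Sdha and its partners was not tested.

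The Sdha call depends on the scaling and on both Ly6d-low libraries. Without the first or the second of them the rise was 0.51 and 0.59, so its size changed little, but it did not pass in limma. With TMM on the TPM the rise was 0.26 (limma, adjusted p = 0.134), and edgeR on the recovered reads gave 0.26 (adjusted p = 0.108). In overexpression against WT cells Sdha differed by 0.04 ± 0.08, and the 4 subunits ranged from −0.15 (Sdhb) to 0.10 (Sdhd), with 0 called in edgeR.

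Complex III passes electrons from ubiquinol to cytochrome c. Its core subunit Uqcrc1 (chr9:108936633-108949623, plus strand), a relative of the proteases that trim imported mitochondrial proteins, was at 270 and 326 TPM in Ly6d-high and at 166 and 208 TPM in Ly6d-low cells. The rise was 0.67 ± 0.16 (limma, adjusted p = 0.0416), the second largest difference above 0 among the members. It was 0.38 with TMM on the TPM (adjusted p = 0.144) and 0.38 in edgeR on recovered reads (adjusted p = 0.0797), and did not pass in either. Without the first or the second Ly6d-low library the rise was 0.51 and 0.84, and without the second Ly6d-high library 0.54. It missed the threshold in limma each time. Its partner Uqcrc2 was at 154 and 161 TPM against 144 TPM in both Ly6d-low libraries, and the Rieske iron-sulphur subunit Uqcrfs1 at 328 and 334 TPM against 336 and 339 TPM. Of the 5 small subunits, Uqcr10 had the lowest difference, at 207 and 115 TPM in Ly6d-high and 232 and 228 TPM in Ly6d-low cells (−0.57 ± 0.25, limma adjusted p = 0.176). The other 4 overlapped between the groups, from −0.52 (Uqcrb) to −0.06 (Uqcr11). Uqcr11 was called lower without the first Ly6d-high library (−0.60) and higher without the second (0.48). In overexpression cells the 8 members ranged from −0.09 (Uqcrq) to 0.14 (Uqcrh, the hinge protein), with 0 called in edgeR.

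Complex IV, cytochrome c oxidase, had the highest complex median in overexpression cells, 0.10, with 10 of its 12 tested members above 0 and 0 called. The second WT library was the lowest of the 4 for 47 of all 78 tested members, and without it the members' median was −0.03. Cox7a2l, a protein that helps join complexes III and IV into supercomplexes, was the member with the smallest p: 214 and 211 CPM in WT and 239 and 249 CPM in overexpression cells (0.18 ± 0.06, edgeR adjusted p = 0.158). Cox6b1, which faces the cytochrome c side, had the largest difference, at 109 and 78.3 CPM in WT and 113 and 109 CPM in overexpression cells (0.23 ± 0.12, adjusted p = 0.376 in edgeR). Only the second WT library stands away from the others there. Without the first WT library Cox6b1 passed, at 0.47.

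In the Ly6d sorts complex IV had 0 called of 12 in limma and a median of −0.16. Cox8a, the general form of the smallest subunit, was at 627 and 417 TPM in Ly6d-high and 689 and 656 TPM in Ly6d-low cells (−0.39 ± 0.18, limma adjusted p = 0.195). DESeq2 on recovered reads called Cox8a lower (−0.65, adjusted p = 0.0361), and edgeR did not (−0.63, adjusted p = 0.125). Cox4i1, the general form of a regulatory subunit, was at 550 and 368 TPM against 517 and 468 TPM, so its Ly6d-high libraries fall on both sides of Ly6d-low. Cox6a1, whose promoter is shown above, was at 728 and 462 TPM against 573 and 534 TPM, which likewise encloses the Ly6d-low values. Its difference was 0.07 ± 0.20 and was below 0 with TMM on the TPM (−0.22), with edgeR (−0.16) and with DESeq2 on recovered reads (−0.17). Cox5a and Cox5b, which sit on the matrix side, differed by 0.00 ± 0.16 and −0.19 ± 0.18, and Cox7c by −0.31 ± 0.29.

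**Figure D3:**
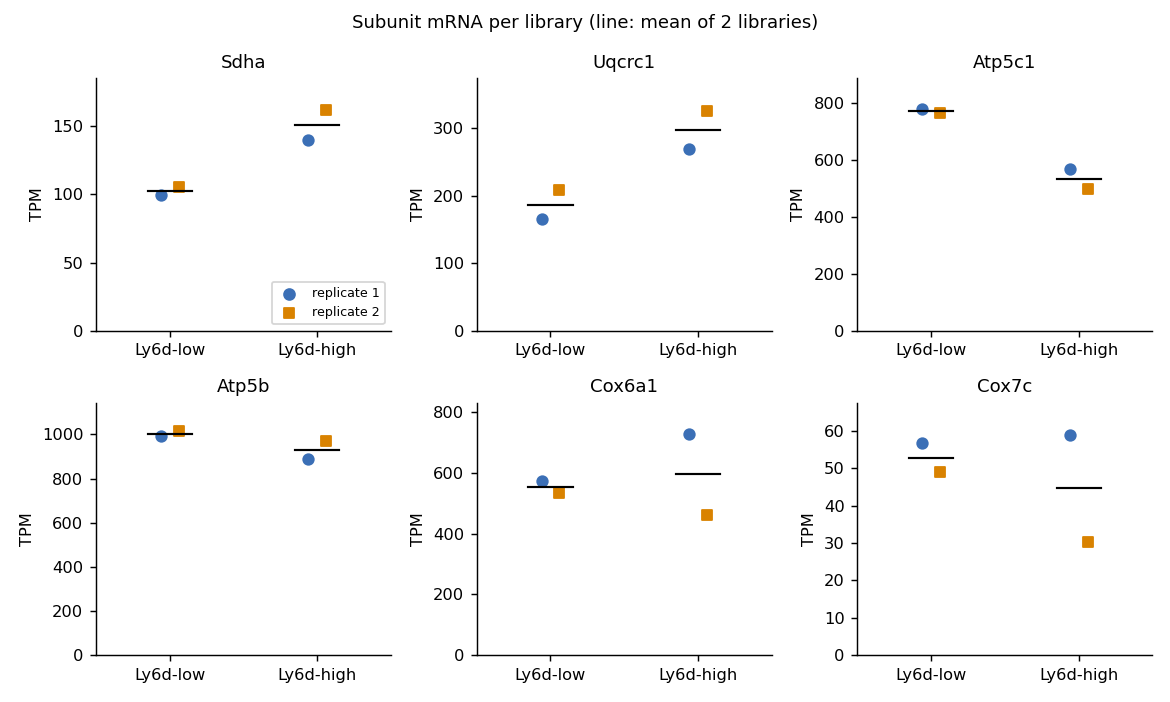
TPM per library of 6 members in Ly6d-low and Ly6d-high cells, with replicate 1 as circles, replicate 2 as squares and the mean of the 2 libraries as a line; all axes start at 0. Sdha, Uqcrc1, Atp5c1 and Atp5b have separated groups, with the smallest difference in Atp5b (−0.11 in log2 units). In Cox6a1 and Cox7c the Ly6d-high replicates lie on both sides of Ly6d-low.

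Complex V, the ATP synthase, turns a γ shaft inside a head of α and β subunits. Atp5c1, the γ subunit (chr2:10056016-10080510, minus strand), was at 568 and 497 TPM in Ly6d-high and at 779 and 765 TPM in Ly6d-low cells. The groups were far apart, and Atp5c1 fell by 0.54 ± 0.11 (limma, adjusted p = 0.0251). It also passed in edgeR on recovered reads (−0.82, adjusted p = 0.0128) and missed with TMM on the TPM (−0.83, adjusted p = 0.0606). Without the first or the second Ly6d-low library its difference was −0.52 and −0.55, so its size changed little, but it did not pass in limma. The catalytic β subunit Atp5b was per length the most abundant tested member of complex V, at 888 and 969 TPM against 993 and 1015 TPM (−0.11 ± 0.10). The α subunit Atp5a1 was at 635 and 739 TPM against 559 and 582 TPM (0.26 ± 0.11), and the δ subunit Atp5d at 491 and 442 TPM against 388 and 387 TPM (0.27 ± 0.11), with limma adjusted p-values of 0.165 and 0.152. Of the 5 head and stalk subunits, the γ subunit alone passed in limma. On recovered reads Atp5b was also called lower, by edgeR (−0.41, adjusted p = 0.0277) and by DESeq2 (−0.42). Atp5a1 and Atp5d, above 0 in TPM, were at −0.03 and −0.02 with TMM on the TPM, at −0.03 and −0.02 in edgeR and at −0.04 and −0.03 in DESeq2 on recovered reads.

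The peripheral stalk holds the head still against the turning rotor. All 4 of its tested genes were below Ly6d-low in both Ly6d-high libraries, where 10.4% of all genes were. In limma 0 of the 4 passed, and their median was −0.47, beside 0.25 for all genes. Without the second Ly6d-high library Atp5f1, Atp5h, Atp5j and Atp5o were at −0.32, −0.21, −0.21 and −0.17. Atp5f1, the b subunit, was at 249 and 225 TPM in Ly6d-high and 311 and 310 TPM in Ly6d-low cells (−0.39 ± 0.11, limma adjusted p = 0.0759). Atp5h, the d subunit, was at 318 and 191 TPM against 397 and 340 TPM (−0.57 ± 0.23). Atp5j, coupling factor 6, was at 146 and 98.0 TPM against 180 and 159 TPM (−0.50 ± 0.20). Atp5o, the OSCP subunit that joins the stalk to the head, was at 72.5 and 49.4 TPM against 85.8 and 77.7 TPM (−0.44 ± 0.20). On recovered reads edgeR called Atp5f1 lower (adjusted p = 0.0196), and DESeq2 called Atp5f1, Atp5j and Atp5o lower (adjusted p = 0.000677, 0.00899 and 0.0238). The values of Atp5h, Atp5j and Atp5o differ at least as much within Ly6d-high as between the groups. In overexpression cells Atp5o was the complex V member with the highest fold change, at 84.5 and 79.5 CPM in WT and 92.1 and 102 CPM in overexpression cells (0.23 ± 0.09, edgeR adjusted p = 0.204).

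The c subunit mRNAs, compared above by sequence, were all expressed. Per length, Atp5g3 was the most abundant in the Ly6d sorts, at 498 and 402 TPM in Ly6d-high and 530 and 536 TPM in Ly6d-low cells. Atp5g2 followed, at 181 and 140 TPM against 156 and 159 TPM. Atp5g1 was the least abundant, at 100 and 67.5 TPM against 102 and 94.3 TPM. The order was the same in all 4 libraries, and the ranges of the 3 genes over these libraries did not overlap. In the count table, brought to TPM over the same gene lengths, Atp5g2 averaged 305, Atp5g3 254 and Atp5g1 49.3, so the order of the first 2 differed between the tables. None of the 3 passed in edgeR for overexpression or in limma for the Ly6d sorts, while DESeq2 on recovered reads called Atp5g3 lower in the sorts. Of the subunits in the membrane, Atp5k, the e subunit, had the lowest difference of all members, at 15.6 and 6.83 TPM in Ly6d-high and 19.1 and 16.4 TPM in Ly6d-low cells (−0.71 ± 0.33, limma adjusted p = 0.194). Atp5l, whose promoter is shown above, was per length the least abundant tested member of the complex in the Ly6d sorts, at 13.2 and 7.35 TPM against 11.5 and 10.3 TPM. Atp5s, listed by the rule but not a structural subunit, was at 10.8 and 7.19 CPM in WT and 6.01 and 7.33 CPM in overexpression cells (−0.45 ± 0.27).

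For most members the 2 Ly6d-high libraries differed from each other, and the difference followed the length of the coding sequence. Replicate 2 lay below replicate 1 for 66 of 78 members, with a median of −0.55 on the log2(TPM + 1) scale, and was the lowest of the 4 libraries for 61. The lowest value was that of Ndufa1 (−1.21, coding length 210 bases) and the highest that of Ndufs1 (0.29, 2181 bases). Across the 78 genes, which share these libraries and are not replicates, Spearman's rho of the difference with coding length was 0.82. It was 0.49 between the Ly6d-low libraries, 0.59 between the WT libraries and 0.05 between the overexpression libraries. The members are short genes: the median coding length of those tested was 417 bases, against 1335 for all protein-coding genes tested in the Ly6d sorts. In other protein-coding genes the same difference ran from −0.28 under 300 bases to 0.29 at 1200 bases or more. In the members it ran from −0.85 (20 genes) to 0.13 (9 genes), with −0.57 for 37 members from 300 to below 600 bases and −0.18 for 12 from 600 to below 1200 bases.

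Results for the members turned on which Ly6d-high library was used. Without replicate 1, 6 members were higher and 52 lower, where 41.1% of all genes were higher and 8.15% lower. The members' median was then −0.43 and that of all genes 0.34. Without replicate 2, 8 were higher and 2 lower, where 9.12% of all genes were higher and 2.72% lower. The medians were then 0.06 and 0.14. In these fits 1 library stands for its group and is assumed to vary like the pair. Cox6a1 was called lower in the first (−0.26, limma adjusted p = 0.0240) and higher in the second (0.40, adjusted p = 0.0217). Atp5c1 was lower in both (−0.63 and −0.44) and Sdha higher in both (0.66 and 0.44). Their coding sequences have 894 and 1992 bases and belong to the longer ones of the set. What made the libraries differ with length was not tested. The group difference had a rho of 0.38 with coding length in the Ly6d sorts and of −0.12 in overexpression against WT cells.

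**Figure D4:**
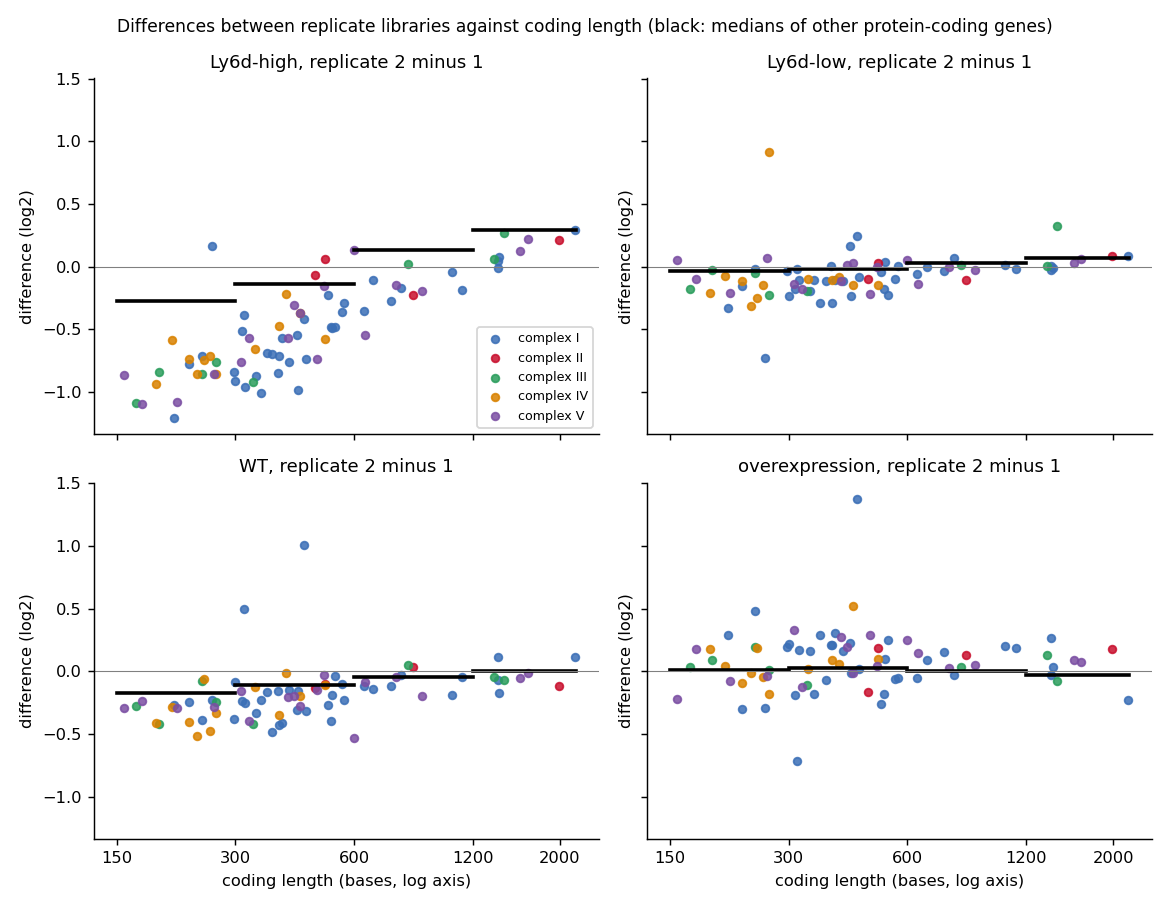
Difference between the 2 replicate libraries of each group (log2, replicate 2 minus 1) for each tested member, against its coding length in bases on a log axis; colours mark the complexes and black lines the medians of other protein-coding genes in 4 length classes. In the Ly6d-high panel the members climb from about −1.21 to 0.29 with length and the shorter ones lie below the black lines, while the overexpression panel has little slope (rho 0.05).

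Subunits encoded in mitochondrial DNA are partners of the members in the same complexes. Their sum of 13 genes was 14753 and 13715 TPM in Ly6d-high and 24847 and 25299 TPM in Ly6d-low cells, a ratio of 0.568, and 8 of 13 were lower in limma with 0 higher. mt-Co1, the catalytic subunit of complex IV, was at 3569 and 3534 TPM against 6468 and 6732 TPM (−0.89 ± 0.07, limma adjusted p = 0.000511). The nuclear members of complex IV had 0 of 12 called by limma in the same libraries. Leaving these genes out of the TPM total left Uqcrc1 and Atp5c1 past the threshold and Sdha short of it (0.53, limma adjusted p = 0.0528). In overexpression cells the sum was 20269 and 21809 CPM against 18569 and 19340 CPM in WT (ratio 1.11), and 0 of 13 passed in edgeR.

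Other nuclear genes that serve the chain lie outside the name rule. Ndufab1, the acyl carrier subunit of complex I, Cyc1, the cytochrome c1 of complex III, and Cycs, cytochrome c, had 0 called in either comparison, and Cycs had the lowest value in the Ly6d sorts (−0.57 ± 0.19, limma adjusted p = 0.109). Of 46 assembly factors of the 5 complexes, 44 were tested in overexpression against WT and 43 in the Ly6d sorts, with 0 called in both. Of 12 regulators of these genes, among them Nrf1, Gabpa, Esrra, Yy1 and Tfam, and of 13 genes of the tricarboxylic acid cycle, 0 were called in either. Of 77 proteins of the mitochondrial ribosome, 0 were called in overexpression cells and 1 was higher in Ly6d-high cells, with medians of −0.07 and −0.04. Of 15 glycolysis genes, Pfkl was higher in overexpression cells (0.29 ± 0.07, edgeR adjusted p = 0.0337), and Ldha and Tpi1 were lower in Ly6d-high cells (−0.57 ± 0.08 and −0.43 ± 0.08, limma adjusted p = 0.00466 and 0.0193). Against WT 14 of the 15 were above 0 in overexpression cells, with a median of 0.16, where 7856 of all 15771 genes were above 0. The median of the glycolysis list in the Ly6d sorts was −0.14, and that of the tricarboxylic acid cycle list 0.20. All genes tested there had a median of 0.25. All 15 glycolysis genes and 10 of the 13 cycle genes lay below that median.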

How the data were processed

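RNA of sorted KPC1199 cells was sequenced on an Illumina platform. The submitters' processing notes list the tools HISAT2, fastp, DESeq2 and featureCounts with no version, and mm9 as the build. The coordinates in the deposited tables are instead those of GRCm38: 98.33% of the 54409 genes found in GENCODE M21 had the same coordinates. Strandedness of the counting, and how it treated reads that also match pseudogene copies, are not given in the sources at hand. The exons of 30 members overlap another gene, 6 of them on the same strand, and their reads may be shared. The deposited counts are raw whole-number counts per gene. The deposited TPM were computed by the authors over the listed gene length. The gene length column of the deposited tables is in bases and has no other unit. Of the count columns, 2 matched no label and were not used, nor were 2 columns of group TPM.

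Counts were tested with edgeR 4.0.16 (filterByExpr, TMM, quasi-likelihood) and TPM with limma 3.58.1 (trend) on log2(TPM + 1) for genes that reached 1 TPM in 2 or more libraries, in R 4.3.3. Both fits ran over all genes with Benjamini-Hochberg adjustment. TPM times length gave whole reads within 0.1 for 100% of values, and these were used for alternatives with edgeR and DESeq2 1.42.0. Other alternatives changed the scaling, filter or pseudocount, added the replicate number as a block, dropped the mitochondrially encoded genes, or left out each library. Both fits were tested on simulated data. Coding length is that of GENCODE M21. In each comparison and complex, the text names members past the threshold, those with the highest and lowest difference and level, isoform sets, complex II and untested members. Values of Atp5f1, Atp5h, Atp5j and other members outside that rule were added after they were seen. The members and lists were chosen with earlier results of these data known.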

Additional observations from a re-analysis of the deposited data

How the results depend on the processing

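In the Ly6d sorts 19 of 78 members had a 95% interval within 0.5 of 0, and 65 within 1. The counts that follow do not track a change of sign short of the threshold, such as that of Atp5d in the Ly6d sorts (0.27, and −0.02 with TMM on the TPM). For 61 named results, 227 values under alternatives stayed on the same side of the threshold in overexpression against WT, where 5 newly passed. In the Ly6d sorts 290 did, 37 newly passed, 20 no longer passed and 1 reversed (Cox6a1, −0.26 without the first Ly6d-high library and 0.40 without the second). Members higher in Ly6d-high cells numbered 2; they were 0 with edgeR or DESeq2 on recovered reads, TMM on the TPM, no filter or a pseudocount of 0.1, 1 without mitochondrially encoded genes, and 0 to 8 when a library was left out. Members lower numbered 1; they were 5 with edgeR, 11 with DESeq2, 0 with TMM, 0 with no filter, and 0 to 52 when a library was left out. Over all genes, no filter gave 1.85% higher and 0.175% lower, and a pseudocount of 0.1 gave 7.75% and 0.991%. With TMM these shares were 4.59% and 1.68%, and without mitochondrially encoded genes 8.08% and 1.13%. With the replicate number as a block, 3 members were higher and 18 lower, beside 24.5% and 4.09% of all genes. The labels give no pairing, and the difference between replicates 1 and 2 correlated by 0.07 between Ly6d-high and Ly6d-low over 14625 genes. For overexpression against WT no paired analysis was possible because the overexpression columns could not be tied to numbered samples. There 0 members were higher or lower; with no filter 1 was higher, and leaving out a library gave 0 to 2 higher and 0 lower. With no filter, 2.42% of all genes were higher in overexpression cells and 2.30% lower. The causes were not tested.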

Other observations

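The members' levels per length differed between the 2 tables with coding length. TPM computed here from the count table, over the gene lengths listed in the tables, were set beside the deposited TPM as means over the 4 libraries of each table. The tables were normalized separately and differ in their cells, so none of this was tested. For the 78 members the log2 ratio of Ly6d-sort TPM to count-table TPM had a median of −0.13 and ranged from −3.00 to 1.56. Across these genes, which share the libraries, its Spearman rho with coding length was 0.75. The median was −1.17 for 20 members under 300 bases and 0.49 for 9 members of 1200 bases or more. Other protein-coding genes had medians of 0.09 (211 genes) and −0.66 (6772 genes) in these length classes, the opposite order. Atp5k, a membrane subunit of complex V, was at 116 TPM in the count table and 14.5 TPM in the Ly6d sorts, Atp5e, the ε subunit, at 200 and 33.3 TPM, and Cox7c of complex IV at 255 and 48.7 TPM. Sdhd of complex II was at 205 and 546 TPM, and Ndufa9, an accessory subunit of complex I, at 113 and 318 TPM. The order of levels among these genes therefore depends on the table read.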
